A study of Mus musculus with 91 samples.

Results

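The miR-106b-25 and miR-106a-363 clusters are the 2 paralogs of the miR-17-92 cluster in the mouse genome, and their abundance was followed across extraembryonic and embryonic tissue, stage, Dnmt genotype, haploid stem cells and semi-cloned embryos. Their 8 members were chosen by name out of the 1504 mature miRNAs of the main count table. miR-106b-25 contributed mmu-miR-106b-5p, mmu-miR-106b-3p, mmu-miR-93-5p, mmu-miR-93-3p and mmu-miR-25-3p, and miR-106a-363 contributed mmu-miR-106a-5p, mmu-miR-20b-5p and mmu-miR-363-3p, written below without the mmu prefix of mouse. miR-92a-3p and miR-19b-3p are made from both miR-17-92 and miR-106a-363, so they were kept out of the members.

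A miRNA cluster is transcribed as a single precursor, which is cut into hairpins, and each hairpin yields a 5p and a 3p arm of which usually one is loaded into Argonaute. The loaded arm finds its target mRNAs mainly through its seed, the bases near its 5′ end, so that miRNAs with the same seed can act on overlapping targets. The miR-17 family is known for promoting proliferation, in part by holding down the cell cycle inhibitor Cdkn1a and the pro-apoptotic factor Bim, and it is abundant in early embryos and pluripotent cells.

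The study asked how far DNA methylation is needed for mouse gastrulation, and inactivated the Dnmt genes in zygotes by injecting a base editor with guide RNAs that create stop codons. Small RNA was measured by CAS-seq (Cas9-assisted small RNA sequencing), a library method that includes a Cas9 and sgRNA treatment and here started from 100 pg of RNA. In all, 91 libraries in 26 groups were used. 62 of them came from the extraembryonic ectoderm (Exe) or the epiblast (Epi), in 16 groups of 4 libraries, except for 3 in the control and in the Dnmt-null Epi at E7.5.

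The Exe and Epi were taken at E6.5 and at E7.5 from embryos of C57BL/6 males and F1 females. By the methods, the females that gave zygotes were B6D2F1 (C57BL/6J by DBA2) and the males carried the Oct4-EGFP transgene on a C57BL/6J background, which all these groups then share. Beside the controls, the genotypes were Dnmt1-KO (Dnmt1 inactivated), Dnmt3a/3b-DKO (Dnmt3a and Dnmt3b) and Dnmt-null, with Dnmt1, Dnmt3a and Dnmt3b inactivated together. Small RNA does not measure the Dnmt transcripts, so these genotypes could not be checked in the libraries, and the sources used here do not say what the control zygotes received. 11 libraries came from androgenetic haploid embryonic stem cells (AG-haESCs), cells with a sperm genome on the C57BL/6 background grown with 2i and Lif. These were wild-type (WT), O48 (the line in which the methods say the miRNA deletions were made, and so taken here as the AG-haESCs with the H19-DMR and IG-DMR deleted, which the sources do not state of O48 by name), a line labelled Mir-6KO, in which miR-409, miR-540, miR-369, miR-541, miR-127 and also let-7b were to be deleted in O48, and 3 libraries of a line 408 that the labels do not describe. Mir-6KO lines were derived from single cells, so they stand for 1 clone each. 18 libraries came from semi-cloned (SC) embryos, made by injecting AG-haESCs into oocytes in place of sperm, with the Dnmt genes inactivated by the same base editing and with the oocyte's genome intact beside the cells' deletions: at E6.5 these were WT, Dnmt-null, DKO (from AG-haESCs with both DMRs deleted) and DKO;Dnmt-null, and at E7.5 a control from DKO-AG-haESCs and Mir-6KO;Dnmt-null, with 3 libraries each. Figure captions of the paper give the E6.5 WT, Dnmt-null and DKO SC samples as epiblast, while the labels name no tissue for any SC library. The labels do not say whether replicates were separate embryos or cultures, so p-values measure the spread between libraries, which may be technical. Embryo sex is not in the labels, although miR-106a-363 lies on the X chromosome.

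Both clusters were placed on the GRCm38 assembly with GENCODE vM21. miR-106b-25 spans chr5:138165321-138165818 on the minus strand, a stretch of 498 bp with 3 hairpins, and lies in intron 13 of the 15-exon coding transcript Mcm7-201, whose gene encodes a subunit of the replicative DNA helicase. In the retained-intron transcript Mcm7-202 the Mir93 and Mir25 hairpins fall within an exon. miR-106a-363 spans chrX:52741693-52742567, also on the minus strand, with 6 hairpins in 875 bp (Mir106a, Mir18b, Mir20b, Mir19b-2, Mir92-2 and Mir363). It is intergenic apart from 5 bases of Mir106a that overlap an exon of the noncoding gene Kis2.

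The mature sequences, from RefSeq (GRCm38.p6), are shown because they decide which members share a seed and which are close enough for reads to be confused. The seed, bases 2 to 8, is in capitals. The first group of members carries the seed AAAGUGC, as do miR-17-5p and miR-20a-5p of miR-17-92, printed for comparison:
miR-106b-5p: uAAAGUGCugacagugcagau
miR-93-5p: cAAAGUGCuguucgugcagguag
miR-106a-5p: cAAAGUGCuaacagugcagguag
miR-20b-5p: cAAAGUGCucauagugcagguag
miR-17-5p: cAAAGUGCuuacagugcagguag
miR-20a-5p: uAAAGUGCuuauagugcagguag

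A second seed, AUUGCAC, is carried by 1 member of each cluster and by miR-92a-3p:
miR-25-3p: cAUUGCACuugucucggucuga
miR-363-3p: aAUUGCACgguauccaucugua
miR-92a-3p: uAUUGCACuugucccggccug

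The 3p arms of the 2 remaining hairpins share neither seed:
miR-106b-3p: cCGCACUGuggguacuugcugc
miR-93-3p: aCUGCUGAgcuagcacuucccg

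Counted from the 5′ end, miR-106a-5p differed from miR-17-5p at 1 position, U10A. miR-20b-5p differed from miR-20a-5p at 2 positions, U1C and U10C, and from miR-106a-5p also at 2 (A10C and C12U, with miR-106a-5p first). In contrast, miR-25-3p and miR-363-3p differed at 13 of 22 positions although they share the seed. The number of mismatches allowed in counting was not given in the sources used here, so values of miR-106a-5p and miR-20b-5p are uncertain to the extent that their reads could be counted for a miR-17-92 member.

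Library totals ranged from 45242 to 26970637 counts. The Exe and Epi libraries had a median of 401240, with a highest total of 2394918, and 3 counts in them corresponded to between 1.25 and 66.3 counts in 1000000 (CPM), the unit used for levels below. The sources name no molecular tags, so such floors cover counting error only. In bulk tissue, fewer cells of a type and less RNA per cell cannot be told apart. The tissue labels were checked with marker miRNAs: the 5 epiblast markers of the miR-302 cluster summed to a median 8.90 times higher in control Epi than Exe at E6.5 and 4.89 times higher at E7.5, and the 6 trophoblast markers of the Sfmbt2 cluster were 5.24 and 19.5 times higher in Exe. Some libraries stood apart. The 2 AG-haESC libraries labelled Mir-6KO held miR-127-3p, named as deleted, at 35728 and 44853 CPM, against 551 to 594 in O48, and the miR-302 cluster markers at 239331 and 268002 CPM, against 924 to 1670 in O48. They went against their label and are called the libraries labelled Mir-6KO. WT SC replicate 3 held those markers at 21252 CPM, against 195381 and 214514 in its 2 replicates.

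In control embryos, all 3 miR-106a-363 members were far lower in Exe than in Epi at both stages, whereas the miR-106b-25 members differed less and not all in step. With an adjusted p under 0.05 as the call, 5 of the 8 members were lower in Exe at E6.5, when 15.4% of the 558 miRNAs tested were lower and 29.4% were called in either direction. At E7.5, 6 of 8 were lower, beside 10.9% lower and 33.2% called in all. miR-363-3p stood at 1886, 1539, 1974 and 2806 CPM in the 4 Exe libraries at E6.5 and at 14318, 14629, 24795 and 21432 CPM in the Epi. No Exe library came near the lowest Epi library. The means were 2052 ± 537 (SD, n = 4) and 18794 ± 5176 (SD, n = 4), a 9.62-fold lower level in Exe (log2 fold change -3.27, SE 0.244, adjusted p = 2.13e-08, edgeR quasi-likelihood test adjusted over all miRNAs tested). At E7.5 the 4 Exe libraries held 2111, 2381, 1797 and 2177 CPM and the 3 Epi libraries 15275, 12965 and 11331 CPM. The groups again did not overlap, with a 6.62-fold difference (log2 fold change -2.73, SE 0.246, adjusted p = 2.93e-07).

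miR-106a-5p and miR-20b-5p, the AAAGUGC members of the X-linked cluster, were lower still in Exe relative to Epi. In the E6.5 Exe, miR-106a-5p was read at 76.0, 50.4, 153 and 128 CPM, and in the Epi at 772, 946, 2709.8 and 2169 CPM. The highest Exe library was thus well under the lowest Epi library, and the fitted difference was 16.5-fold (log2 fold change -4.05, SE 0.502, adjusted p = 6.27e-06). miR-20b-5p showed the same order, with 60.8, 151, 262 and 166 CPM in the Exe and 1048, 1259, 3329 and 2659 CPM in the Epi, a 13.1-fold difference (log2 fold change -3.71, SE 0.443, adjusted p = 4.77e-06). Within the Epi, replicates 3 and 4 were the high libraries for both miRNAs. At E7.5 both remained lower in Exe. miR-106a-5p had 31.7, 56.0, 73.0 and 30.0 CPM in Exe and 506, 335 and 396 CPM in Epi (log2 fold change -3.18, SE 0.485, adjusted p = 3.86e-05). miR-20b-5p had 65.04, 124, 92.8 and 72.1 CPM in Exe and 808, 737 and 730.0 CPM in Epi (log2 fold change -3.18, SE 0.437, adjusted p = 1.25e-05). Neither comparison had overlapping libraries.

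Among the miR-106b-25 members, miR-93-5p, of the AAAGUGC seed, and miR-25-3p, of the AUUGCAC seed, were called lower in Exe at both stages, by smaller amounts. miR-93-5p was at 30.4, 468, 455 and 224 CPM in E6.5 Exe and at 884, 899.9, 1803 and 1458 CPM in E6.5 Epi. The Exe library with the lowest value, replicate 1, held only 2 counts of it, and the groups did not overlap (log2 fold change -2.14, SE 0.474, adjusted p = 0.00251). At E7.5 the values were 382, 351, 249 and 431 CPM in Exe and 867, 875 and 672 CPM in Epi (log2 fold change -1.27, SE 0.478, adjusted p = 0.0487). That call was lost without the E7.5 Epi control replicate 1 (adjusted p = 0.117 by edgeR), the E7.5 Exe control replicate 2 (0.0900) or replicate 3 (0.0542), with the replicate number as a block (0.0562), or when the scaling left out the Dlk1-Dio3 miRNAs (0.0835), while the log2 fold change stayed between -1.67 and -1.19 without any 1 of the 7 libraries.

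miR-25-3p, the most abundant member of miR-106b-25, had smaller fold changes than miR-93-5p. At E6.5 its Exe libraries held 6068, 4985, 3112 and 7147 CPM and its Epi libraries 7279, 6786, 8344 and 8094 CPM. One Exe library lay above the lowest Epi library, so the groups overlapped, and the call (log2 fold change -0.59, SE 0.206, adjusted p = 0.0383) was lost without the Epi control replicate 1, 3 or 4 or the Exe control replicate 2 (edgeR adjusted p between 0.0553 and 0.116) and when only the 2 groups were fitted (-0.45, adjusted p = 0.248). At E7.5, by contrast, the Exe libraries lay close together at 4116, 4322, 4149.9 and 4682 CPM and the Epi libraries at 8371, 8854 and 8204 CPM. There the 2.09-fold difference (log2 fold change -1.06, SE 0.22, adjusted p = 0.000872) was kept in every alternative and without any 1 library.

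The remaining 3 members gave less. miR-106b-3p was 768 ± 273 (SD, n = 4) CPM in E6.5 Exe and 824 ± 123 (SD, n = 4) CPM in Epi (log2 fold change -0.19, SE 0.3, adjusted p = 0.643). At E7.5 it was called lower in Exe, at 675, 420.2, 577 and 611 against 811, 929 and 1126 CPM (log2 fold change -0.83, SE 0.315, adjusted p = 0.0496), a call lost without the Epi control replicate 1 (adjusted p = 0.0739) or the Exe control replicate 2 (0.150), with no filter on low counts (0.133), or with that scaling (0.121). The groups did not overlap there. miR-106b-5p was read in the E6.5 Exe at 441, 57.5, 198 and 6.39 CPM, a wide spread with 1 count in replicate 4, and its difference from Epi was not called (log2 fold change -0.85, SE 0.683, adjusted p = 0.362). Without Exe control replicate 1 it became -1.76 with an adjusted p of 0.046. At E7.5 miR-106b-5p was at 96.7, 85.2, 100.0 and 118 CPM in Exe and 165, 273 and 192 CPM in Epi, without overlap. That difference was not called (log2 fold change -1.15, edgeR adjusted p = 0.240), but it was when only the 2 groups were fitted (-1.18, adjusted p = 0.00935). miR-93-3p had a log2 fold change of 0.20 at E6.5 (adjusted p = 0.737) and -0.78 at E7.5 (adjusted p = 0.206). Its E6.5 value turned to -0.27 when the scaling factors were computed without the Dlk1-Dio3 miRNAs. At E7.5 it was called without Epi control replicate 2, at -1.36 with an adjusted p of 0.0396.

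The median log2 fold change of the 8 members was -1.50 at E6.5 and -1.21 at E7.5, and that of all miRNAs tested was -0.16 and 0.00. The scaling without the Dlk1-Dio3 miRNAs moved the median of all miRNAs at E6.5 to -0.63. The test of the difference between the 2 stages' tissue contrasts called none of the 8 members, with 13.4% of all miRNAs called, so the tissue difference was not shown to differ between stages for any of them. With an unadjusted p under 0.05 taken with a log2 difference over 0.5, the thresholds the study used, the count was also 0, and DESeq2 called 0. When the scaling left out the Dlk1-Dio3 miRNAs, miR-363-3p was called (1.17, adjusted p = 0.0269, with the median over all miRNAs at 1.23), and without E6.5 Exe control replicate 3 miR-25-3p was (-0.78, adjusted p = 0.0428).

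**Figure D1:**
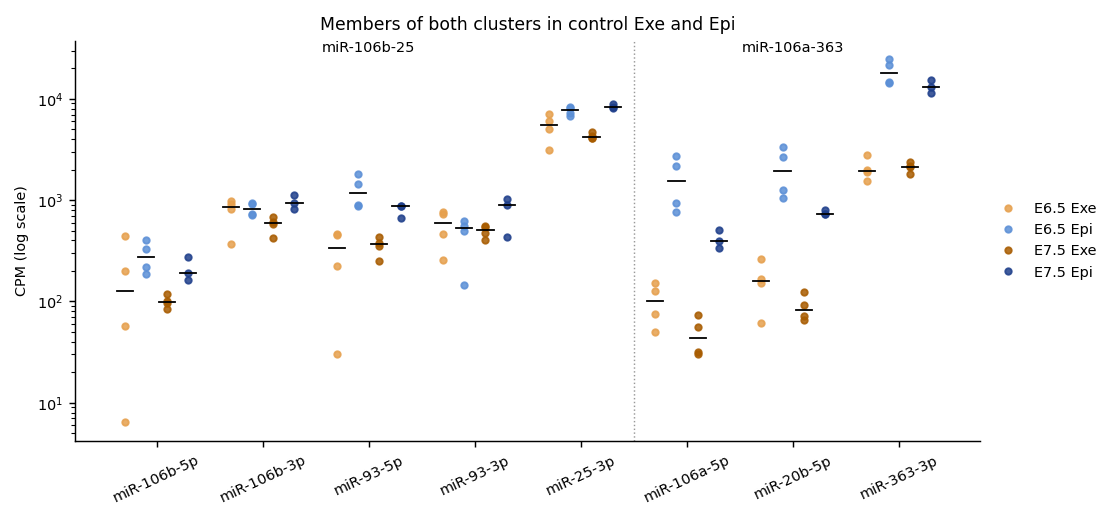
Each point is 1 control library's CPM (log axis) for 1 member, by tissue and stage, with a short line at the group median. For the 3 miR-106a-363 members on the right, the 4 Exe libraries of each stage lie under all Epi libraries, with miR-363-3p at 1539 to 2806 CPM in E6.5 Exe and 14318 to 24795 CPM in E6.5 Epi.

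Other arms of the 2 clusters, outside the 8 members, were called lower in Exe in part. 8 such arms were in the table, and 5 of them passed the filter on low counts. Of these, 3 were called lower in Exe at E6.5, beside 15.4% of all miRNAs, and 4 at E7.5, beside 10.9%. miR-18b-3p was 13.5-fold lower at E6.5 (log2 fold change -3.75, adjusted p = 0.000381, edgeR), miR-363-5p, the passenger arm of miR-363-3p, 18.8-fold (log2 fold change -4.23, adjusted p = 5.30e-06), and miR-92a-2-5p 7.23-fold (log2 fold change -2.85, adjusted p = 2.48e-05). These arms are made from miR-106a-363 alone. miR-25-5p, the passenger arm of miR-25, had a log2 fold change of -0.26 at E6.5 (adjusted p = 0.503) and -1.60 at E7.5 (adjusted p = 0.000303).

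Of 11 miR-17-92 arms tested, 3 were called lower in Exe at each stage, beside 15.4% of all miRNAs at E6.5 and 10.9% at E7.5. The median over the 11 was -0.90 at E6.5 and -1.02 at E7.5, against -1.50 and -1.21 over the 8 members. Values of the miR-106b-25 members lay on both sides of the miR-17-92 medians, and all 3 miR-106a-363 members lay below them. miR-17-5p was 3.06-fold lower in Exe at E6.5 (log2 fold change -1.61, SE 0.291, edgeR adjusted p = 0.000378) and miR-20a-5p 3.80-fold (log2 fold change -1.92, SE 0.447, adjusted p = 0.00376). miR-92a-3p, the most abundant arm with this cluster's sequence, had a log2 fold change of -0.33 at E6.5 (adjusted p = 0.103) and -1.05 at E7.5 (adjusted p = 3.43e-05).

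Grouped by seed, the members made up different shares of their families in the 2 tissues. In E6.5 Exe the 6 AAAGUGC miRNAs in the table made up a median 0.198% of all counts, and miR-106a-5p and miR-20b-5p were 5.70% and 8.15% of that family. In E6.5 Epi the family was 0.882% of all counts, and the same 2 miRNAs were 17.1% and 21.8% of it. The 4 members with this seed together went from 35.9% of the family in Exe to 56.3% in Epi, the rest being miR-17-5p and miR-20a-5p. For the AUUGCAC seed, miR-92a-3p dominated throughout, with 88.6% of the family in E6.5 Exe and 72.7% in Epi, while miR-363-3p was 2.97% in Exe and 16.9% in Epi. miR-25-3p held 7.29% and 7.26% of it. At E7.5 miR-363-3p was 2.32% of that family in Exe and 6.76% in Epi, whose family total was 19.5% of all counts. These shares are medians over libraries, given without a test.

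Set against each other within a library, chosen arms of the clusters changed places between the tissues. The summed counts of miR-106b-5p, miR-93-5p and miR-25-3p were divided by those of miR-106a-5p, miR-20b-5p and miR-363-3p, a ratio that needs no scaling between libraries. In E6.5 Exe its median was 2.74 (log2 1.46, range 0.66 to 1.69), and in Epi its log2 median was -1.25 (range -1.56 to -0.94). At E7.5 the log2 medians were 1.13 in Exe and -0.49 in Epi. In each of the 8 control Exe libraries miR-106b-25 was the larger, and in each of the 7 control Epi libraries miR-106a-363 was.

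In the Epi, 2 of the 8 members were called at E7.5 against E6.5, both lower. That is near the share of all miRNAs called there, 26.9%, with 17% called lower. From E6.5 to E7.5 miR-106a-5p fell from 772, 946, 2709.8 and 2169 to 506, 335 and 396 CPM, 3.94-fold (log2 fold change -1.98, SE 0.488, adjusted p = 0.00527, edgeR). No E7.5 library reached the lowest E6.5 library. miR-20b-5p fell from 1048, 1259, 3329 and 2659 to 808, 737 and 730.0 CPM (log2 fold change -1.43, SE 0.432, adjusted p = 0.019). This second call was lost without E6.5 Epi control replicate 3 or 4 or without any 1 of the 3 E7.5 Epi control libraries (adjusted p between 0.0522 and 0.102, log2 fold change between -1.50 and -1.11). miR-363-3p, from the same precursor, had a log2 fold change of -0.48 (adjusted p = 0.159), which was called at -0.99 when the scaling left out the Dlk1-Dio3 miRNAs, where the median over all miRNAs moved from -0.13 to -0.61. In the Exe none of the 8 was called, with 14.3% of all miRNAs called there by edgeR. miR-106a-5p (-1.11, adjusted p = 0.145) and miR-20b-5p (-0.90, adjusted p = 0.18) had the lowest values there and were the 2 that passed the study's unadjusted thresholds, as did 25.3% of all miRNAs. DESeq2 called 0. Between the control Epi of the 2 stages every marker list but that of visceral endoderm also moved without overlap. From E6.5 to E7.5 the 5 pluripotency markers (miR-290 cluster) went from 92044 to 99339 CPM down to 27841 to 28221 CPM, and the 6 trophoblast markers from 5298 to 21724 down to 1639 to 2142 CPM. The 5 epiblast markers went from 130389 to 200354 up to 202279 to 212606 CPM, the 4 mesenchyme markers, of which 1 was at 0 at each stage, from 55.9 to 107 up to 232 to 396 CPM, and the 3 blood markers from 41.4 to 59.4 up to 59.8 to 91.0 CPM. Their part in the result was not tested.

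Inactivation of Dnmt genes was compared with the control of the same tissue and stage, so the 3 mutant genotypes of a tissue and stage share their controls. Of these 12 comparisons, the one with the most members called was the Dnmt-null Epi at E7.5, where 4 of the 5 miR-106b-25 members were lower and none of the 3 miR-106a-363 members was called. Of the 652 miRNAs tested there, 17.3% were called lower and 33.7% called in either direction. miR-25-3p was at 8371, 8854 and 8204 CPM in the control Epi and at 5893, 6081 and 6258 CPM in the Dnmt-null Epi. The groups were tight and apart, with a 1.64-fold lower level in the Dnmt-null (log2 fold change -0.71, SE 0.106, adjusted p = 7.54e-05, edgeR). This call was kept in every alternative and without any 1 library.

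The 3 other calls in the E7.5 Dnmt-null Epi were less firm. miR-106b-5p went from 165, 273 and 192 to 36.6, 77.9 and 146 CPM (log2 fold change -1.49, SE 0.43, adjusted p = 0.0128), and was not called without the control replicate 2 or the Dnmt-null replicate 1 or 2 (adjusted p between 0.0556 and 0.0798). miR-106b-3p went from 811, 929 and 1126 to 707, 760.1 and 739 CPM (log2 fold change -0.61, SE 0.186, adjusted p = 0.0183), and lost the call without control replicate 3 or Dnmt-null replicate 1 or 2 (adjusted p between 0.0673 and 0.116) or with no filter on low counts (0.245). For both arms of the mir-106b hairpin, then, all 3 Dnmt-null libraries lay under all 3 controls. miR-93-5p went from 867, 875 and 672 to 425, 533 and 643 CPM (log2 fold change -0.82, SE 0.277, adjusted p = 0.0311), and was not called without control replicate 1 or 2 or Dnmt-null replicate 1 or 2 (adjusted p between 0.0754 and 0.185), nor with RLE scaling or either other filter (0.0502 to 0.0759). miR-93-3p was at 1034, 437 and 891 CPM in controls and 487, 188 and 657 CPM in the Dnmt-null (log2 fold change -1.04, SE 0.533, adjusted p = 0.148). Its groups overlapped.

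Of the X-linked members in the same libraries, miR-106a-5p was at 506, 335 and 396 CPM in control and 439.8, 735 and 796 CPM in Dnmt-null Epi (log2 fold change 0.44, SE 0.477, adjusted p = 0.533). miR-20b-5p (-0.09, adjusted p = 0.834) and miR-363-3p (-0.18, adjusted p = 0.367) had values near 0 that turned to 0.24 and 0.14 when the scaling left out the Dlk1-Dio3 miRNAs. That scaling moved the median of all miRNAs from -0.19 to 0.13 and left 2 calls, miR-106b-5p and miR-25-3p. The within-library cluster ratio, which no scaling touches, had a log2 median of -0.49 in the control and -1.22 in the Dnmt-null Epi (ranges -0.82 to -0.46 and -1.28 to -1.01), with no overlap. In the Dnmt3a/3b-DKO Epi at E7.5 its log2 median was -1.12. At E6.5 it went the other way, from -1.25 in the control to -0.86 in the Dnmt-null Epi, with overlapping ranges. Beside these values, the miR-302 cluster markers summed to 105333 to 164935 CPM in the Dnmt-null and 202279 to 212606 CPM in the control, all 5 present, and the 6 trophoblast markers to 3524 to 7041 and 1639 to 2142 CPM, all present. The 5 pluripotency markers were at 38677 to 50597 and 27841 to 28221 CPM, and the 4 mesenchyme markers, 1 of them at 0 in each group, at 7.33 to 61.5 and 232 to 396 CPM. Their part in the result was not tested.

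Of 11 miR-17-92 arms tested in the E7.5 Dnmt-null Epi, 4 were called lower, beside 17.3% of all miRNAs, and the median over the 11 was -0.72. miR-92a-3p fell by 0.86 on the log2 scale (adjusted p = 5.17e-06, edgeR) and miR-17-5p by 0.79 (adjusted p = 0.0242). miR-25-5p was called lower as well, at -1.21 (adjusted p = 0.00149), while none of the other 5 tested arms of the clusters was called.

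**Figure D2:**
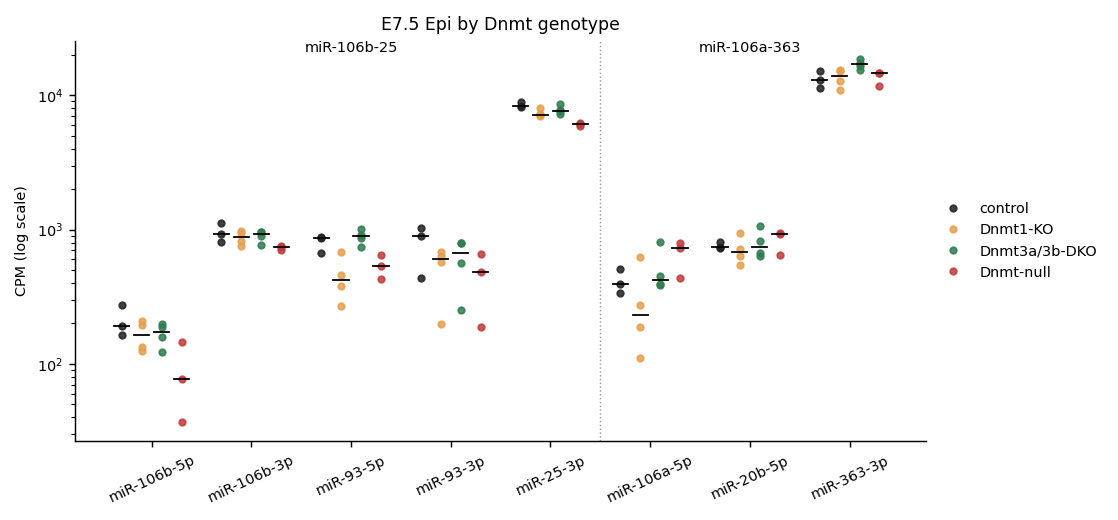
Points are CPM (log axis) of each E7.5 Epi library by Dnmt genotype, with a short line at the median of 3 or 4 libraries. The Dnmt-null libraries (red) lie under the controls (black) for miR-106b-5p, miR-106b-3p, miR-93-5p and miR-25-3p, and overlap them for the 3 miR-106a-363 members.

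Dnmt1-KO gave 2 calls in the E7.5 Epi, beside 7.98% of all miRNAs called lower and 16.3% called. There, miR-93-5p was at 269, 380.1, 456 and 684 CPM (log2 fold change -1.04, SE 0.253, adjusted p = 0.00861, edgeR), with 1 of the 4 libraries reaching the control range. miR-25-3p was at 7264, 7105, 7055 and 7977 CPM in the same libraries, all below the control range (log2 fold change -0.39, SE 0.0981, adjusted p = 0.0103). Without control replicate 2 the miR-25-3p call was lost (-0.38, adjusted p = 0.0516), and without Dnmt1-KO replicate 4 miR-106a-5p was called too (-1.28, adjusted p = 0.032). Both calls were lost in the scaling without the Dlk1-Dio3 miRNAs, at -0.72 and -0.07, where the median over all miRNAs moved from -0.15 to 0.17, and when only the 2 groups were fitted (adjusted p = 0.0587 and 0.0758), and that of miR-25-3p also with no filter (0.303) or a mean of at least 10 counts (0.0933). The epiblast markers were at 135939 to 200375 CPM in these Dnmt1-KO libraries and 202279 to 212606 CPM in their controls, and the trophoblast markers at 2548 to 3629 and 1639 to 2142 CPM. The pluripotency markers were at 28894 to 43043 and 27841 to 28221 CPM and the 3 visceral endoderm markers, 1 of them at 0 in Dnmt1-KO, at 1033 to 1381 and 415 to 914 CPM. None of these ranges overlapped, and their part was not tested. In Dnmt3a/3b-DKO none of the 8 was called by edgeR at E7.5 in the Epi, none passed the study's unadjusted thresholds, and 7.67% of all miRNAs were called. DESeq2 called 1, miR-25-3p, at -0.27.

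At E6.5, 1 member was called in the Dnmt-null Epi and it belonged to the other cluster, beside 4.65% of all miRNAs called lower and 13% called. miR-363-3p was at 14318, 14629, 24795 and 21432 CPM in the control and 6852, 9591, 13637 and 14143 CPM in the Dnmt-null, with no overlap (log2 fold change -0.91, SE 0.286, adjusted p = 0.0389, edgeR). The call was lost without control replicate 3 or 4 or Dnmt-null replicate 1 or 2 (adjusted p between 0.0899 and 0.146, log2 fold change between -0.85 and -0.68), without the libraries under 100000 counts (-0.77, adjusted p = 0.202), and when the scaling left out the Dlk1-Dio3 miRNAs (-0.74, adjusted p = 0.149) or only the 2 groups were fitted (-0.81, adjusted p = 0.0806). Dnmt-null replicate 1 had 45242 counts in all and none of miR-106b-5p or miR-93-5p. The miR-302 cluster sum was 48473 to 100114 CPM in these Dnmt-null libraries and 130389 to 200354 CPM in their controls, and that of the pluripotency markers 31917 to 66207 and 92044 to 99339 CPM; their part in the result was not tested. Dnmt1-KO and Dnmt3a/3b-DKO gave no call in the E6.5 Epi, by edgeR or DESeq2 or by the study's unadjusted thresholds, with 0.733% and 3.42% of all miRNAs called.

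In the Exe, 1 call was made over all genotypes and stages. miR-93-3p, the 3p arm of mir-93, was at 259, 727, 460.2 and 767 CPM in the E6.5 control and 183, 105, 88.6 and 85.98 CPM in Dnmt3a/3b-DKO (log2 fold change -2.44, SE 0.556, adjusted p = 0.0492, edgeR). It was 1 of 2 miRNAs called there, 0.532% of 376 tested, and the 1 called lower (0.266%). The groups did not overlap, but the adjusted p lay just under the threshold and was over it in 6 alternatives and without any 1 of 7 libraries, all but the control replicate 1 (adjusted p between 0.0867 and 0.257). The other arm, miR-93-5p, had a log2 fold change of 0.37 there (adjusted p = 0.946). No member was called in E6.5 Exe Dnmt1-KO (0% of all miRNAs called; 1 member, miR-25-3p, passed the study's unadjusted thresholds, as did 8.78% of all miRNAs, and DESeq2 called 0) or in Dnmt-null (0.532% called; 2 passed those thresholds, miR-93-3p and miR-25-3p, as did 13% of all, and DESeq2 called miR-93-3p). At E7.5 the Exe gave 0 calls in Dnmt1-KO (5.03% of all called), Dnmt3a/3b-DKO (3.02%) and Dnmt-null (9.88%); the study's thresholds passed miR-93-5p in Dnmt1-KO, which DESeq2 also called (-0.91), and no other member in these 3, beside 16.8% of all miRNAs in Dnmt1-KO. Without Dnmt-null replicate 4, miR-25-3p was called in the E7.5 Dnmt-null Exe (-0.52, adjusted p = 0.0219).

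Whether a Dnmt-null effect differed between tissues or stages was tested directly. None of the 8 members was called for a difference between Exe and Epi at E6.5 (0.912% of all called) or E7.5 (0.608%), or between stages within Exe (0.608%) or Epi (10.6%), by edgeR or DESeq2. With the study's unadjusted thresholds, which 18.1% of all miRNAs passed between tissues at E6.5, 1 member passed, miR-93-5p between tissues at E6.5 (1.92, adjusted p = 0.197). So the calls of miR-363-3p at E6.5 and of the miR-106b-25 members at E7.5 were not shown to differ from the same effect at the other stage.

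**Figure D3:**
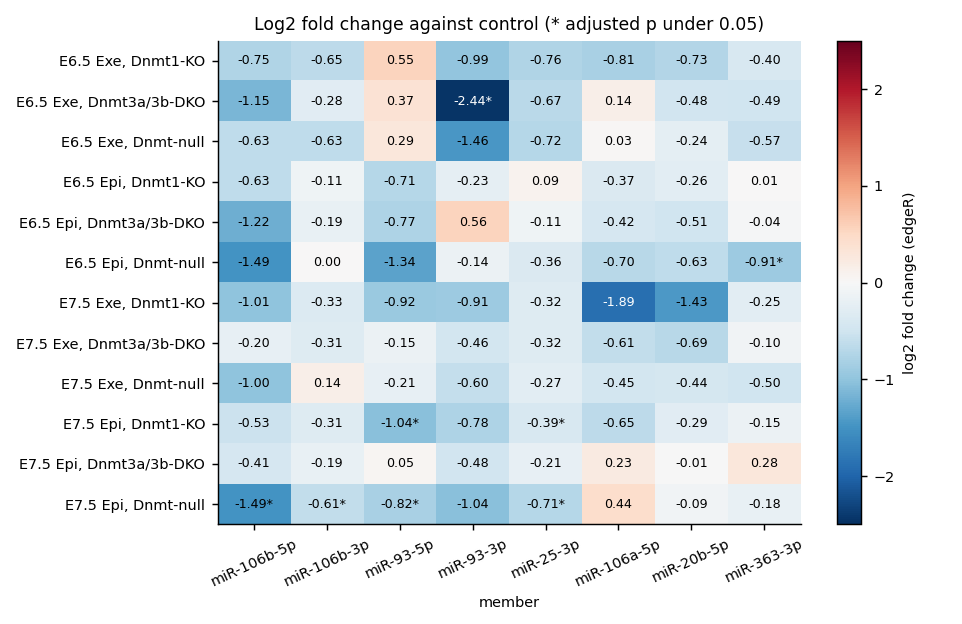
Each cell gives the edgeR log2 fold change of 1 member (columns) in 1 mutant against the control of its tissue and stage (12 comparisons in rows), with * for an adjusted p under 0.05. Of the 8 calls, 6 are in the E7.5 Epi, and all 8 are below 0.

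The 2 hairpins with both arms among the members were compared arm by arm, which again needs no scaling. The mir-106b hairpin gave mostly its 3p arm: the ratio of miR-106b-5p to miR-106b-3p had a geometric mean of 0.335 in E6.5 Epi control, 0.217 in E7.5 Epi control and 0.216 in WT AG-haESCs. In the mir-93 hairpin the 5p arm was the larger in WT AG-haESCs (5.07) and in the E6.5 Epi control (3.00) but not in the E6.5 Exe control (0.405). The arm ratios of mir-93 in E6.5 Exe and Epi did not overlap, a difference of -2.89 on the log2 scale with an unadjusted exact permutation p of 0.0286 (two-sided, 4 against 4), the smallest this size allows. Those of mir-93 in E6.5 Exe Dnmt3a/3b-DKO and its control did not overlap either, at 3.14 with the same p. Over the 48 arm ratio tests the lowest adjusted p was 0.686, so none passed, and 5 pairs of groups did not overlap. The E6.5 Exe control libraries carried few counts of these arms, with a single count of miR-106b-5p in replicate 4 and 2 counts of miR-93-5p in replicate 1.

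In WT AG-haESCs the cluster ratio stood as in the Exe rather than the Epi, with the larger sum in the miR-106b-25 arms. miR-93-5p was at 1509.8, 1498 and 1495 CPM, miR-25-3p at 5993, 5872 and 5660.4 CPM and miR-363-3p at 3539.7, 3750.3 and 3591 CPM. Its replicates were close to each other. The cluster ratio had a log2 median of 0.89, against 1.26 in line 408, for which no comparison was made, and 0.58 in O48. O48 against WT gave no call among the 8, with 13.7% of all miRNAs called. The fold changes ran from -0.19 to 0.56, and 4 of them, all of miR-106b-25, changed sign with RLE scaling, under which the median over all miRNAs moved from -0.28 to 0.09. None passed the study's unadjusted thresholds, while DESeq2 called 4 (miR-93-3p, miR-106a-5p, miR-20b-5p and miR-363-3p, at 0.56 to 0.94). Without O48 replicate 2, edgeR called miR-363-3p at 0.47.

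The libraries labelled Mir-6KO differed from O48 in 5 of the 8 members, beside 52.1% of all miRNAs called (31.7% lower and 20.4% higher). miR-363-3p was at 16901 and 19185 CPM in these 2 libraries and 4955, 2936 and 4663 CPM in O48 (log2 fold change 1.61, SE 0.218, adjusted p = 0.000511, edgeR). miR-106b-5p was at 77.1 and 52.7 CPM against 324, 195 and 302 CPM (log2 fold change -2.59, SE 0.325, adjusted p = 0.000335), and miR-93-5p at 411 and 486 against 1499, 1174 and 1618 CPM (log2 fold change -2.17, SE 0.192, adjusted p = 4.16e-05). One member was thus higher and the miR-106b-25 5p arms were lower in the libraries labelled Mir-6KO. miR-106b-3p (-1.56, adjusted p = 0.000277) and miR-106a-5p (-1.28, adjusted p = 0.015) were also lower, the latter not with the scaling that left out the Dlk1-Dio3 miRNAs (-0.96, adjusted p = 0.0683) or when only the 2 groups were fitted (-1.12, adjusted p = 0.0965). The median over all miRNAs was itself -0.82. These libraries carried the miRNAs named as deleted and the epiblast markers given above, and 17720 and 21338 CPM of the 5 pluripotency markers (miR-290 cluster) against 126599 to 147083 in O48, so each difference from O48 rests on libraries that go against their label. Their cluster ratio, log2 -1.44 and -1.39, lay within the range of the control E6.5 Epi. Without O48 replicate 2, miR-25-3p (-0.38) and miR-20b-5p (-0.60) were called too.

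WT SC embryos at E6.5, given as epiblast in the paper's captions, were compared with the AG-haESCs they were made from and with the E6.5 control Epi. Against WT AG-haESCs, miR-363-3p was higher, at 13495, 16451 and 6226 CPM in the SC libraries (log2 fold change 1.43, SE 0.31, adjusted p = 0.00278, edgeR), and at 1.65 (adjusted p = 6.11e-05) without SC replicate 3, the library that stood apart. miR-106b-3p was lower, at 589, 521 and 480.1 CPM against 1295, 1362 and 1351 CPM (log2 fold change -1.57, SE 0.263, adjusted p = 0.000542, and -1.66 without replicate 3). miR-93-5p was lower, at 896, 672 and 182 CPM (log2 fold change -1.69, SE 0.448, adjusted p = 0.00836, and -1.33 without replicate 3). None of these 3 calls had overlapping libraries, and 49.5% of all miRNAs were called, 22.8% lower and 26.7% higher. miR-93-3p had 2 counts in replicate 3 and was called higher without it (1.22, adjusted p = 0.0306). All marker lists but that of trophoblast moved without overlap. In SC and AG-haESC libraries the epiblast markers were at 21252 to 214514 and 3659 to 3914 CPM, and the pluripotency markers at 5866 to 67830 and 111285 to 116793 CPM. Those of visceral endoderm were at 1780 to 2296 and 3048 to 3337 CPM, of mesenchyme at 90.0 to 112 and 1503 to 1578 CPM, and of blood at 94.6 to 228 and 38.5 to 65.2 CPM. Their part was not tested.

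Against the E6.5 control Epi, 2 members were called lower in the SC embryos, beside 2.77% of all miRNAs called lower and 8.51% called. miR-106a-5p was at 476, 278 and 287 CPM (log2 fold change -2.09, SE 0.46, adjusted p = 0.0174, and -2.11 without replicate 3). miR-20b-5p was at 843, 499.6 and 426 CPM (log2 fold change -1.67, SE 0.421, adjusted p = 0.0337, and -1.61 without replicate 3). For both, all 3 SC libraries lay under every control Epi library. Each call was lost without SC replicate 2 (adjusted p = 0.058 and 0.0738) or without control Epi replicate 3 (0.0518 and 0.0835), and that of miR-20b-5p also without control Epi replicate 4 (0.0714). Both were lost as well with the replicate number as a block (0.118 and 0.187) and when only the 2 groups were fitted (0.0589 and 0.101). The pluripotency markers were at 5866 to 67830 CPM in these SC libraries and 92044 to 99339 CPM in the Epi, the visceral endoderm markers at 1780 to 2296 and 724 to 1753 CPM, and the blood markers at 94.6 to 228 and 41.4 to 59.4 CPM; their part was not tested. miR-363-3p had a log2 fold change of -0.54 here (adjusted p = 0.246).

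**Figure D4:**
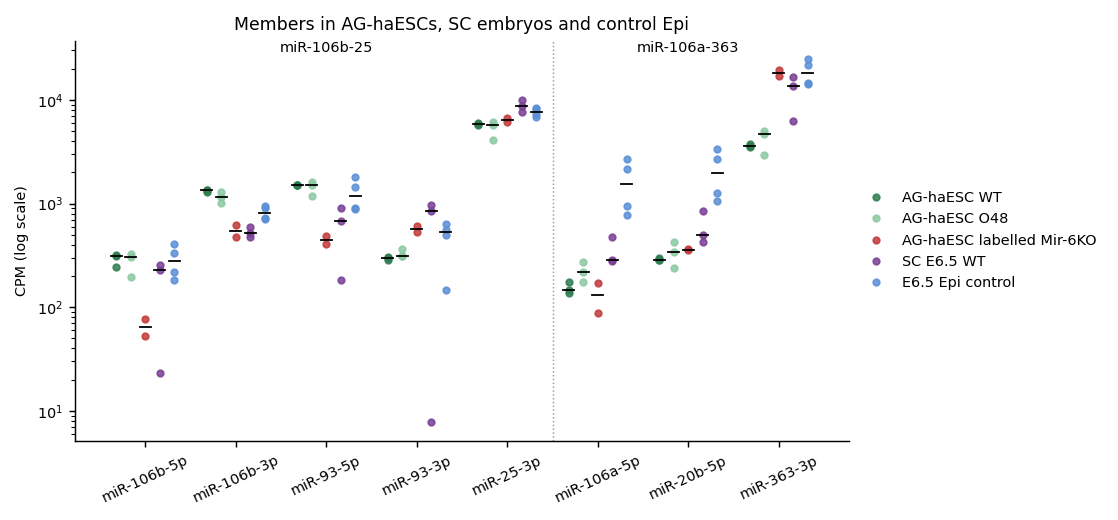
Points are CPM (log axis) of each library of WT AG-haESCs, O48, the libraries labelled Mir-6KO, WT SC embryos at E6.5 and control E6.5 Epi, with a short line at the median. miR-363-3p is at 3539.7 to 3750.3 CPM in WT AG-haESCs and at 16901 and 19185 CPM in the libraries labelled Mir-6KO, and the single low SC point for miR-93-3p is WT SC replicate 3.

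Within the SC embryos, Dnmt-null against WT at E6.5 gave no member called, with 1.52% of all miRNAs called by edgeR. The study's unadjusted thresholds passed 1 member (miR-363-3p, -0.90, adjusted p = 0.232) and 18.9% of all miRNAs, and DESeq2 called the same member (-0.95). Its values were 7348, 5649 and 9258 CPM in Dnmt-null and 13495, 16451 and 6226 CPM in WT. Without WT replicate 3, 3 members were called lower, miR-363-3p (-1.22, adjusted p = 0.0132), miR-93-5p (-0.98, 0.0276) and miR-93-3p (-1.29, 0.0424). The epiblast markers were at 82565 to 122808 CPM and the trophoblast markers at 13813 to 39332 CPM in Dnmt-null, against 3117 to 10410 CPM of the latter in WT, where 1 of the 6 was at 0. The visceral endoderm markers were at 3168 to 4472 CPM in Dnmt-null and 1780 to 2296 CPM in WT. The mesenchyme markers, 1 of them at 0 in Dnmt-null and 2 in WT, were at 165 to 205 and 90.0 to 112 CPM. The part of these markers was not tested. DKO against WT gave 0 calls, by edgeR, also without WT replicate 3, and by DESeq2, with 0.217% of all miRNAs called and 1 member, miR-25-3p (-0.76), past the unadjusted thresholds with 13% of all.

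DKO;Dnmt-null SC embryos had 7 of the 8 members lower than DKO SC embryos, beside 16.4% of all miRNAs called lower and 35.3% called. The 2 groups come from separate count tables, so table and group cannot be told apart. miR-20b-5p was at 907, 773 and 819 CPM in DKO and 505, 491 and 508 CPM in DKO;Dnmt-null (log2 fold change -0.84, SE 0.108, adjusted p = 4.63e-06, edgeR). miR-93-3p went from 672, 765 and 689 to 468, 435 and 413 CPM (log2 fold change -0.79, SE 0.108, adjusted p = 9.98e-06). For both, the groups were apart. miR-363-3p went from 13687, 13930.2 and 14067 to 10057, 12402 and 11688 CPM (log2 fold change -0.39, SE 0.0943, adjusted p = 0.00306). The others called were miR-106b-5p (-0.90), miR-106b-3p (-0.51), miR-93-5p (-0.57) and miR-25-3p (-0.22), and miR-106a-5p was at -0.35 (adjusted p = 0.0636). The call of miR-25-3p was lost without DKO replicate 1 or 3 or DKO;Dnmt-null replicate 2 or 3 (adjusted p between 0.056 and 0.157) and with the scaling that left out the Dlk1-Dio3 miRNAs (0.153). Without DKO replicate 2, miR-106a-5p was called at -0.48. The median over the 8 was -0.54 and over all miRNAs -0.05. The miR-302 cluster markers were at 130119 to 147052 CPM in DKO;Dnmt-null and 177971 to 196784 CPM in DKO. The trophoblast markers were at 17675 to 22063 and 14759 to 16442 CPM, the visceral endoderm markers at 2286 to 3357 and 1555 to 1914 CPM, the blood markers at 82.0 to 129.8 and 22.3 to 34.2 CPM, and the mesenchyme markers, 1 of them at 0 in DKO;Dnmt-null, at 179 to 244 and 138 to 159 CPM. In all 5 lists the groups did not overlap, and their part was not tested.

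At E7.5, Mir-6KO;Dnmt-null against control SC embryos gave 0 members called, by edgeR, by DESeq2 and by the unadjusted thresholds, with 3.08% of all miRNAs called. miR-363-3p was at 14441, 16510 and 21289.9 CPM in the control and 13197, 21253 and 16007 CPM in the mutant. The groups overlapped for all 8. In the mutant, miR-127-3p, named as deleted in the cells of origin, was at 34218 to 51921 CPM, below the 52288 to 67386 CPM of the control.

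**Figure D5:**
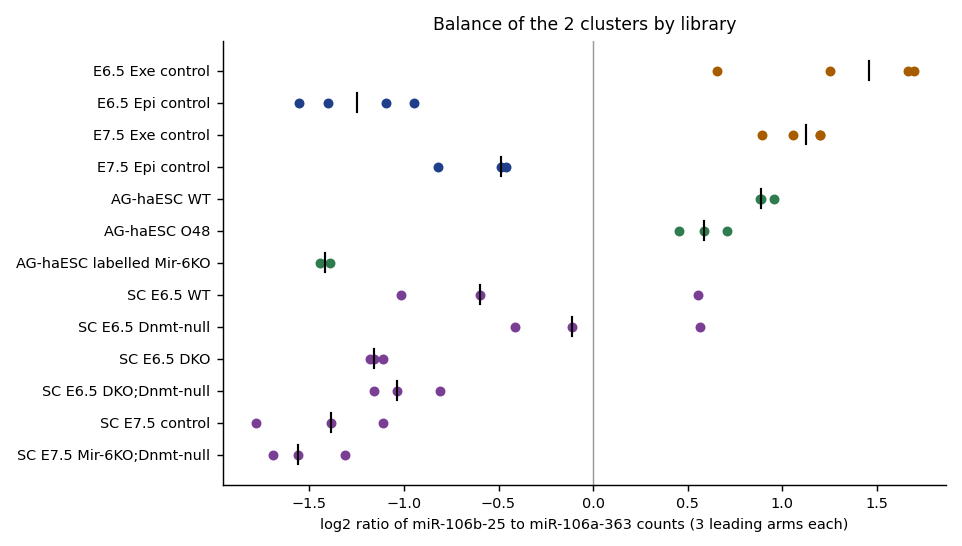
Each point is 1 library's log2 ratio of summed counts of the 3 chosen miR-106b-25 arms to those of the 3 chosen miR-106a-363 arms. A short line marks the group median, and points right of 0 have the larger sum in the miR-106b-25 arms. All control Exe, WT AG-haESC and O48 libraries lie right of 0, all control Epi libraries and the 2 libraries labelled Mir-6KO left of it, and 1 WT SC library, replicate 3, at 0.55.

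Across the 16 Exe and Epi groups the most abundant member of each cluster followed the miR-302 arms most closely of 292 miRNAs compared. Over group mean log2 CPM, miR-363-3p had a Pearson r of 0.987 with miR-302a-5p, 0.984 with miR-302b-5p and 0.976 with miR-302d-5p. For miR-25-3p the 3 most alike were miR-302b-5p (0.967), miR-302d-5p (0.959) and miR-18b-3p (0.956), the last of them from miR-106a-363. Among the members, miR-106a-5p and miR-20b-5p went together most closely (0.981) and miR-93-5p and miR-93-3p, which come from 1 hairpin, least (0.392). These are descriptions over 16 group means that share the difference between tissues.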

How the data were processed

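Small RNA was read by CAS-seq. According to the methods, reads were trimmed with fastp 0.20.1, aligned to GRCm38 with bowtie 1.2.1.1 and assigned to mature miRNAs of miRBase 21 with up to 2 nt of change at the 3′ end. The deposited values are raw counts per mature miRNA, made by the authors without normalization. No molecular tags are mentioned, so PCR copies count as reads. 2 columns that match no sample were not used. Library totals are given with the results.

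Levels are counts divided by the library total, in CPM. Differences were tested with edgeR 4.0.16 (R 4.3.3) by its quasi-likelihood test with TMM factors, a filter on low counts (filterByExpr, minimum 10) and Benjamini-Hochberg adjustment over all miRNAs tested, with a call at 0.05. All groups of a tissue and stage, of the control tissues, of the AG-haESCs or of the E6.5 SC embryos of the main table shared a fit. WT SC embryos, WT AG-haESCs and E6.5 control Epi were fitted together, as were all Exe and Epi groups for differences between Dnmt-null effects. All 8 members passed the filter in each comparison. The DKO;Dnmt-null SC counts came in a separate table. Arm ratios used a pseudocount of 0.5 counts and were compared by exact two-sided permutation tests, adjusted over 48. The cluster ratio used no pseudocount. All 8 members were tested in every comparison, though not each is named in each. The other miRNAs named were those of 3 lists (other arms of both clusters, miR-17-92, seed mates) that were called in a contrast of tissue, stage or Dnmt-null, and the 3 miRNAs whose group means correlated best with the most abundant member of each cluster. The members and lists were chosen with earlier results of these data known. DESeq2 1.42.0, other scalings (RLE, and TMM factors without 109 Dlk1-Dio3 miRNAs), other filters, a replicate block, fits of only the groups compared, and leaving out each library or, chosen after seeing the data, the 5 libraries under 100000 counts were alternatives. In simulated data for E6.5 Exe against Epi (558 miRNAs), edgeR recovered 21.8% of changes of 1 and 65.6% of changes of 2 on the log2 scale.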

Additional observations from a re-analysis of the deposited data

Results flagged for a closer look

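In groups of 4 libraries, 112 sets of member values were examined for a highest or lowest library far from the rest by Dixon's test, and 6 stood out, where chance gives about 1 in 20. miR-363-3p was at 2730.0 CPM in E6.5 Exe Dnmt3a/3b-DKO replicate 4, with the other 3 libraries at 1198 to 1354, and at 2052 CPM in E7.5 Exe Dnmt-null replicate 3, with the others at 1183 to 1319.6. miR-106a-5p was at 432 CPM in E6.5 Exe Dnmt-null replicate 4 (41 counts), with the others at 0 to 37.6. In that library the miR-302 cluster markers were at 24413 CPM, above 12548 to 20552 in the others. miR-106a-5p was also at 814 CPM in E7.5 Epi Dnmt3a/3b-DKO replicate 1, with the others at 388 to 451. In E7.5 Exe Dnmt3a/3b-DKO replicate 3, miR-106b-5p was at 139 CPM, above 68.6 to 80.0 in the others, and miR-25-3p at 3061 CPM, below 3674 to 3765. In the AG-haESC line 408, which entered no comparison, miR-93-5p was at 1512 CPM in its lowest library, above the 1495 to 1509.8 CPM of WT AG-haESCs, a difference of a few CPM.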

How the results depend on the processing

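All 38 member calls kept their sign in every alternative, and 22 were called in all of them. Replicate numbers did not pair the libraries: correlations of the deviations of same-numbered libraries ran from -0.288 to 0.476, and in 0 of 24 comparisons did every pair exceed 0.1. With the replicate number as a block, 4 calls were lost, of which 1 was miR-93-5p in E7.5 Exe against Epi. The counts of called members went from 1 to 0 in E6.5 Exe Dnmt3a/3b-DKO and from 2 to 0 in WT SC embryos against E6.5 Epi. No further count moved by over 1.5 times under the block.

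TMM factors without the Dlk1-Dio3 miRNAs lost 10 calls, with counts of 0 in E6.5 Exe Dnmt3a/3b-DKO, E6.5 Epi Dnmt-null and E7.5 Epi Dnmt1-KO, 2 in E7.5 Epi Dnmt-null and 1 for the tissue difference between stages. RLE scaling gave 0 in E6.5 Exe Dnmt3a/3b-DKO and 1 in O48. No filter, or a mean of at least 10 counts, gave 0 in E6.5 Exe Dnmt3a/3b-DKO and 1 in E7.5 Epi Dnmt1-KO. DESeq2 lost 0 calls and gave 1 in E6.5 Exe Dnmt-null, E7.5 Exe Dnmt1-KO, E7.5 Epi Dnmt3a/3b-DKO and SC Dnmt-null, and 4 in O48. Fitting only the groups compared gave 0 in E6.5 Exe Dnmt3a/3b-DKO, E6.5 Epi Dnmt-null, E7.5 Epi Dnmt1-KO and SC embryos against Epi, and 2 in O48. Without the 5 libraries under 100000 counts, E6.5 Epi Dnmt-null gave 0. The study's unadjusted thresholds gave 1 in E6.5 Exe Dnmt1-KO, E7.5 Exe Dnmt1-KO, E7.5 Epi Dnmt1-KO, the tissue difference of the Dnmt-null effect at E6.5, SC Dnmt-null and SC DKO, and 2 in E6.5 Exe Dnmt3a/3b-DKO, E6.5 Exe Dnmt-null and the Exe over stage. The causes were not tested.

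Leaving out 1 library gave counts of 0 to 1 in O48, E6.5 Epi Dnmt-null, E6.5 Exe Dnmt3a/3b-DKO, E7.5 Exe Dnmt-null and the tissue difference between stages, 1 to 4 in E7.5 Epi Dnmt-null, 1 to 3 in E7.5 Epi Dnmt1-KO, 0 to 3 in SC Dnmt-null, 0 to 2 in SC embryos against Epi and 1 to 2 in Epi over stage. With all arms in the cluster ratio, its log2 mean moved by over 1 SD in SC DKO (-0.97), O48 (0.75), the libraries labelled Mir-6KO (-1.32), line 408 (1.43) and WT AG-haESCs (1.09), with the same sign, and its log2 median also in E7.5 Epi Dnmt-null (from -1.22 to -1.08). In simulated data for E6.5 Exe against Epi, 21.8% of differences of 1 on the log2 scale were recovered, so a member that was not called is not shown to be unchanged.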

Other observations

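Line 408 of the AG-haESCs, which the labels do not describe, entered no comparison, and its levels are given as values only. miR-25-3p was at 5769, 5618 and 5550.0 CPM, miR-363-3p at 2790.2, 2692 and 2678 CPM, miR-106b-3p at 1329, 1330.5 and 1232 CPM and miR-20b-5p at 239.7, 279.7 and 242 CPM in its 3 libraries. In WT AG-haESCs, miR-20b-5p was at 283, 282 and 297 CPM and miR-106b-3p at 1295, 1362 and 1351 CPM.

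In the stage comparison of the control Epi, 2 miRNAs that share the seed AUUGCAC with miR-25-3p and miR-363-3p rose while those 2 were not called. miR-92b-3p was 8.56-fold higher at E7.5 (log2 fold change 3.10, adjusted p = 4.64e-07, edgeR) and miR-92a-3p rose by 1.06 on the log2 scale (adjusted p = 6.46e-05). The AUUGCAC family as a whole was a median 10.6% of all counts in the E6.5 Epi and 19.5% in the E7.5 Epi, and miR-363-3p made up 16.9% of it at E6.5 and 6.76% at E7.5. In the E7.5 Dnmt-null Epi the family was 13.0% of all counts, and miR-363-3p 11.3% of it.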
